A study of Mus musculus with 24 samples.

Results

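The Cyp3a family of the mouse liver was followed across 2 genotypes and 6 times of day. Its members were the rows of the deposited count table for Cyp3a11, Cyp3a13, Cyp3a16, Cyp3a25, Cyp3a41a, Cyp3a44 and Cyp3a59, matched by Ensembl identifier, which makes 7 genes of 54532. Of these, 4 passed the filter on low counts (Cyp3a11, Cyp3a13, Cyp3a25 and Cyp3a59) and 3 did not (Cyp3a16, Cyp3a41a and Cyp3a44). The knockout mice lacked all 3 PAR bZip transcription factors (Hlf-/-/Dbp-/-/Tef-/-), and the wild-type mice were Hlf+/+/Dbp+/+/Tef+/+. Whole liver was taken every 4 h from ZT04 to ZT24 (zeitgeber time, hours from lights on), from ad libitum fed mice aged 12 to 16 weeks. There were 2 mRNA libraries per genotype and time, 24 in all. The labels carry the letter I for replicate 1 and P for replicate 2 of every group, here set I and set P, and do not say what the letters stand for. They also carry the letter M in every library name, without an explanation. They name no tissue-specific driver for the deletions, do not spell out sex, and do not say whether the 2 libraries of a group stem from 2 animals. The p-values therefore describe the spread between libraries, part of which may be technical.

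CYP3A enzymes are haem monooxygenases of the hepatocyte endoplasmic reticulum that oxidise steroids, bile acids and a large part of all drugs. Their genes are targets of the xenobiotic receptors PXR (Nr1i2) and CAR (Nr1i3), and depend on hepatocyte factors such as HNF4A. The PAR bZip factors DBP, TEF and HLF are clock-controlled activators that bind the D-box, and are known in liver as regulators of the detoxification programme. Cyp3a11 is the major inducible Cyp3a enzyme of mouse liver, whereas Cyp3a16, Cyp3a41 and Cyp3a44 are known as forms found mainly in female or young mouse liver.

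Counts totalled 14613001 to 19288322 per library, and 15090 genes were tested. The deleted genes were low in all knockout libraries: Hlf at 0.1123 to 3.341 CPM, Tef at 3.537 to 30.07 CPM and Dbp at 0 to 0.1138 CPM. Their wild-type ranges were 46.95 to 95.61, 42.39 to 330.2 and 0.2786 to 56.75 CPM (CPM, or counts over the TMM-scaled library size). Wild-type set I stood apart from the other libraries. Genes of high GC content were read at higher levels in it than in the median library, with a correlation across genes of 0.1977 to 0.6571, against -0.1344 to 0.01169 in knockout set I, -0.2854 to -0.1009 in knockout set P and -0.1917 to 0.04908 in wild-type set P. Within it, the trend was strongest at ZT20 (0.6571), ZT16 (0.6076) and ZT04 (0.5829). All 6 hepatocyte markers were detected, and their summed level was lower in knockout libraries (42700 to 65910 CPM) than in wild-type libraries (66870 to 95420 CPM). Alb made up most of this sum, at 35380 ± 7323 CPM in the knockout and 62610 ± 8170 CPM in the wild type (SD). The mean of Apob went the other way, at 8697 ± 1344 CPM in the knockout and 5771 ± 3807 CPM in the wild type. Of the 6 markers, Alb, Tat, Ttr and Apoa1 fell in the knockout, beside 21.1% of all genes tested. Serpina1c (log2 change -0.20, edgeR adjusted p = 0.187) and Apob (0.62, edgeR adjusted p = 0.291) did not pass, although Apob was higher within set I alone (2.26, edgeR adjusted p = 0.0328). Of 5 Kupffer cell markers, 3 rose (Adgre1 by 0.45, Marco by 0.76 and Vsig4 by 0.27 on the log2 scale) and 0 fell, beside 12.1% of all genes tested that rose, and their summed level was 340.6 to 533.5 CPM in knockout libraries and 324.2 to 643.4 CPM in wild-type libraries. The part of these markers in the Cyp3a changes was not tested. In whole tissue, fewer cells of a type and less RNA per cell cannot be told apart.

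All 7 genes lie on chromosome 5 (GENCODE M21, mm10). Cyp3a13 stands alone on the minus strand, at chr5:137892932-137921619. The others form a cluster, in which Cyp3a16, Cyp3a41a, Cyp3a44, Cyp3a11 and Cyp3a25 follow each other on the minus strand from chr5:145436309-145469723 (Cyp3a16) to chr5:145977194-146009618 (Cyp3a25). Cyp3a59 comes last, at chr5:146079257-146113287 on the plus strand, so that it faces away from its neighbour Cyp3a25. The coding sequences of Cyp3a25 and Cyp3a59 were 97.482% identical, but 94.539% of the 100-base windows of each were found in no other Cyp3a coding sequence. Cyp3a11 was 95.172% identical to Cyp3a41a and 76.074% identical to Cyp3a25, and 99.505% of its windows were its own. Only 10.828% of the windows of Cyp3a41a were its own, since Cyp3a41b is 99.868% identical to it. Reads of Cyp3a41a and Cyp3a41b could therefore have been split or dropped by the authors' counting, and the Cyp3a41a counts are uncertain.

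The promoters of the 4 abundant genes are shown because 2 of these genes changed together and are near copies upstream as well. Each stretch runs from 250 bases before the RefSeq start to 50 after it, on the gene's own strand, from RefSeq sequence of GRCm38.p6, with capitals marking the HNF4 core CAAAGTCCA and the nuclear receptor hexamer AGGTCA in either direction.
Cyp3a11, chr5:145879805-145880104, minus strand: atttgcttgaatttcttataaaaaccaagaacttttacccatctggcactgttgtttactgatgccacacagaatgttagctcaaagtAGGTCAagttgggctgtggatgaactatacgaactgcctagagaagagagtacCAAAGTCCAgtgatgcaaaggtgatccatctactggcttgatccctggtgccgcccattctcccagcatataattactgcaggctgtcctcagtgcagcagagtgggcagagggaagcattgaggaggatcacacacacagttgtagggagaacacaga
Cyp3a25, chr5:146009568-146009867, minus strand: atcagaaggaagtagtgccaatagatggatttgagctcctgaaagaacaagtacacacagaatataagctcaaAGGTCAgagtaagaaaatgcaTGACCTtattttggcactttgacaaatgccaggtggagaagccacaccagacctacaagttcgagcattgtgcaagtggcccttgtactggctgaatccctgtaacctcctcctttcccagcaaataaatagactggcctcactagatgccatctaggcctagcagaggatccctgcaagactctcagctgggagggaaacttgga
Cyp3a59, chr5:146079008-146079307, plus strand: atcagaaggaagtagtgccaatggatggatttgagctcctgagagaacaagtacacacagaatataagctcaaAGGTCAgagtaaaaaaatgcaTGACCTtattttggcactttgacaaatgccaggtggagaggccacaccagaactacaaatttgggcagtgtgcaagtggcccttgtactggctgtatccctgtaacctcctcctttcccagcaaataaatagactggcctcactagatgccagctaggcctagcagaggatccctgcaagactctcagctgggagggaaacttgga
Cyp3a13, chr5:137921570-137921869, minus strand: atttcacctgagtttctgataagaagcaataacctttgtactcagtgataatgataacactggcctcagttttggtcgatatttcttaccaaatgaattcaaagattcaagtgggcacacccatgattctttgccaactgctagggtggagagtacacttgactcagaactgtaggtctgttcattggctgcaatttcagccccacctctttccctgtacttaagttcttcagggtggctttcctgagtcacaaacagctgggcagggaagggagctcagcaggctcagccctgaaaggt

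The Cyp3a25 and Cyp3a59 promoters were 96.333% identical, against 53.231% for Cyp3a11 and Cyp3a25 and 50.301% for Cyp3a13 and Cyp3a25. Cyp3a11 held the HNF4 core at positions -109 to -101 from the RefSeq start and AGGTCA at -162 to -157. Cyp3a25 and Cyp3a59 held AGGTCA at -177 to -172 and its inverse TGACCT at -156 to -151, and no HNF4 core. These traits were not particular to the abundant genes. The promoter of Cyp3a57, a gene with 5 counts over all libraries, held AGGTCA at -174 to -169 and TGACCT at -153 to -148. It was 89.109% identical to that of Cyp3a25 and 90.759% to that of Cyp3a59. The HNF4 core was also in the promoters of Cyp3a16, Cyp3a41a and Cyp3a41b. Among 32851 mouse promoters of this length, 0.475% held the HNF4 core and 16.255% held AGGTCA, on either strand. The 2 D-box cores searched, TTATGTAA (0.938% of promoters) and TTACGTAA (0.119%), were in none of the Cyp3a promoters, which says only that these letters are not in these windows. GENCODE places the start of Cyp3a11 further upstream than RefSeq, within the window printed.

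Cyp3a25 and Cyp3a59 were higher in knockout liver, and Cyp3a11 and Cyp3a13 did not pass the test. The plot of levels by zeitgeber time shows all 24 libraries for these 4 genes. Averaged over the 6 times, the fitted log2 change of Cyp3a25 was 0.63 (SE 0.196, edgeR adjusted p = 0.0263) and that of Cyp3a59 was 0.77 (SE 0.217, edgeR adjusted p = 0.0166). That makes 2 of the 4 tested members higher and none lower, beside 33.2% of all genes tested that passed in either direction and 12.1% that passed as higher in knockout. The median log2 change of all genes tested was -0.02. This fit did not use the letter. With the letter as a replicate block, Cyp3a25 changed by 0.70 (edgeR adjusted p = 0.00412) and Cyp3a59 by 0.82 (edgeR adjusted p = 0.00504). At any single time, 0 of the 4 members passed by edgeR or by DESeq2, where by edgeR 1.26%, 0.934%, 1.85%, 1.65%, 3.93% and 0.676% of all genes passed from ZT04 to ZT24. Of these 24 tests, 2 had an unadjusted edgeR p under 0.05, those of Cyp3a25 and Cyp3a59 at ZT20.

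**Figure D1:**
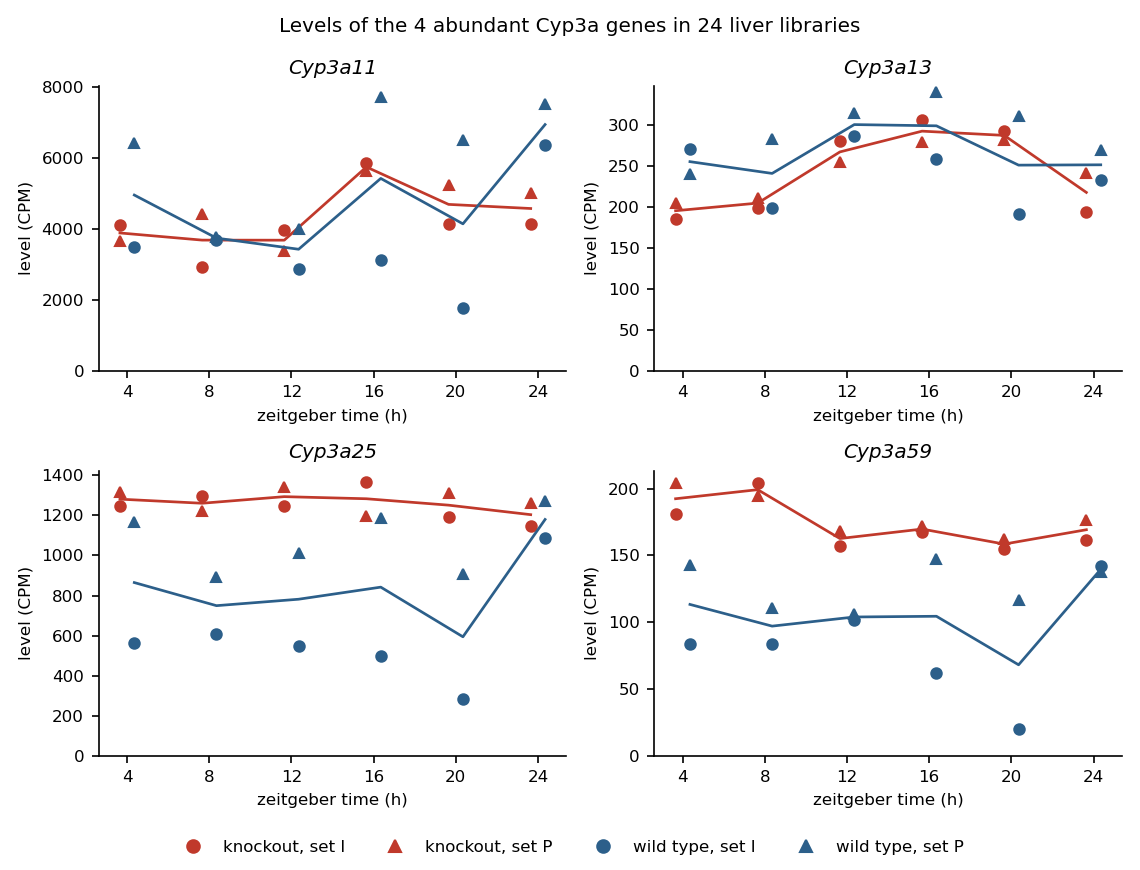
Level in CPM (vertical axis, from 0) against zeitgeber time in hours for Cyp3a11, Cyp3a13, Cyp3a25 and Cyp3a59; each point is a library, circles are set I and triangles set P, and lines join the means of the 2 libraries of a group. Knockout Cyp3a25 stays between 1148 and 1369 CPM, whereas wild-type set I lies at 280.3 to 1087 CPM and wild-type set P at 891.4 to 1273 CPM.

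Cyp3a25, a hepatic Cyp3a enzyme, was level across the day in the knockout. From ZT04 to ZT24, knockout libraries held 1248, 1299, 1245, 1369, 1192 and 1148 CPM in set I and 1315, 1223, 1343, 1198, 1311 and 1260 CPM in set P. Wild-type libraries held 564.3, 607, 549.8, 496.6, 280.3 and 1087 CPM in set I and 1165, 891.4, 1013, 1187, 906.9 and 1273 CPM in set P. Both knockout libraries lay above both wild-type libraries at 5 of 6 times, from ZT04 to ZT20, and the groups overlapped at ZT24. Such an order at 5 or more times was seen for 6.38% of all genes tested. The lowest wild-type values were those of set I, and the knockout-to-wild-type ratio was 1.056 to 4.252 within set I and 0.9893 to 1.446 within set P. Within set P alone the log2 change was 0.25 (SE 0.0854, edgeR adjusted p = 0.0772), and within set I alone, where 33.7% of all genes passed, it was 1.18 (SE 0.235, edgeR adjusted p = 0.0246). The 2 changes differed (set P minus set I, -0.91, SE 0.201, edgeR adjusted p = 0.0167), as they did for 29% of all genes tested. Without the 6 wild-type set I libraries the change was 0.24, in a fit that leaves a lone library in each wild-type group.

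The pooled call for Cyp3a25 also lay near the threshold. It was lost when any of 10 libraries was left out, with log2 changes of 0.56 to 0.63 and edgeR adjusted p of 0.0507 to 0.0616. These were, in the knockout, set I of ZT08 and ZT16 and set P of ZT04, ZT12 and ZT24, and in the wild type, set I of ZT04, ZT08, ZT12, ZT16 and ZT24.

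Cyp3a59, the near copy of Cyp3a25, was separated between the genotypes at all 6 times. From ZT04 to ZT24, knockout libraries held 180.7, 204.1, 157.1, 167.1, 154.4 and 161.7 CPM in set I and 204, 194.2, 168, 172.2, 162.4 and 176.6 CPM in set P. Wild-type libraries held 83.41, 83.21, 101.7, 61.78, 19.78 and 141.8 CPM in set I and 143, 110.7, 105.9, 146.9, 116.2 and 137.2 CPM in set P. All 12 knockout libraries lay above all 12 wild-type libraries, an order seen for 0.596% of all genes tested. The ratio of knockout to wild type was 1.14 to 7.805 within set I and 1.172 to 1.754 within set P. Within set P alone the log2 change was 0.50 (SE 0.0746, edgeR adjusted p = 0.00148), where 13% of all genes passed, 6.7% as higher. Within set I alone it was 1.25 (SE 0.322, edgeR adjusted p = 0.0301), and the difference between the sets did not pass (edgeR adjusted p = 0.119).

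Cyp3a11, the most abundant member and the main inducible one, did not pass the test in the fit of all libraries. From ZT04 to ZT24, knockout libraries held 4116, 2942, 3984, 5877, 4157 and 4143 CPM in set I and 3666, 4436, 3390, 5629, 5237 and 5019 CPM in set P. Wild-type libraries held 3498, 3706, 2864, 3119, 1779 and 6359 CPM in set I and 6424, 3786, 3998, 7740, 6517 and 7541 CPM in set P. The genotypes overlapped at 5 of 6 times, and at ZT24 both knockout libraries lay below both wild-type libraries, as they did for 20% of all genes tested. The log2 change was -0.10 (SE 0.198, edgeR adjusted p = 0.685). Its direction followed the set, at 0.32 (SE 0.254, edgeR adjusted p = 0.338) within set I and -0.38 (SE 0.114, edgeR adjusted p = 0.0527) within set P. Without the 6 wild-type set I libraries it was -0.42, in a fit that leaves a lone library in each wild-type group. It turned positive, and did not pass, when wild-type set P of ZT16 (0.03, edgeR adjusted p = 0.893) or of ZT20 (0.10, edgeR adjusted p = 0.576) was left out.

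Cyp3a13, which stands outside the cluster and is also expressed in the mouse intestine, did not pass in the fit of all libraries either. From ZT04 to ZT24, knockout libraries held 185.1, 198.3, 279.4, 305.7, 292.7 and 193.3 CPM in set I and 205, 210.4, 254, 278.3, 281 and 241.4 CPM in set P. Wild-type libraries held 270.5, 198.3, 285.6, 257.7, 190.5 and 232.5 CPM in set I and 239.2, 282.7, 314.4, 339.3, 310.7 and 269.5 CPM in set P. Within set P the knockout library was the lower at all 6 times, and within set I it was the higher at 2 of 6. The log2 change was -0.14 (SE 0.0906, edgeR adjusted p = 0.217) in all libraries. It was 0.003 (SE 0.161, edgeR adjusted p = 0.989) within set I and -0.27 (SE 0.0597, edgeR adjusted p = 0.0141) within set P.

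The lowest levels of Cyp3a11, Cyp3a25 and Cyp3a59 lay in the library with the strongest trend with GC content. This library, wild-type set I of ZT20, held 1779, 280.3 and 19.78 CPM of them, the lowest of all 24 libraries. Its Ddx3y, a Y-linked gene unrelated to the family, was also the lowest, at 2.957 CPM, against 65.02 to 121 CPM in knockout libraries and 82.06 to 105.7 CPM in wild-type set P. The lowest Cyp3a13 was that of knockout set I of ZT04, at 185.1 CPM. Within wild-type set I, Cyp3a25 was highest at the weakest GC trend (1087 CPM at ZT24, 0.1977). Between these ends it did not fall steadily. At ZT12 (0.2576) and ZT08 (0.2919) it was 549.8 and 607 CPM, and at ZT04 (0.5829) and ZT16 (0.6076) it was 564.3 and 496.6 CPM. The part of the GC trend in the changes of the single genes was not tested beyond the fits given here. With slopes on GC content and transcript length removed and the letter as a replicate block, the log2 changes were 0.25 for Cyp3a25 (edgeR adjusted p = 0.0101) and 0.41 for Cyp3a59 (edgeR adjusted p = 0.00329). In that fit they were -0.47 for Cyp3a11 (edgeR adjusted p = 0.00111) and -0.56 for Cyp3a13 (edgeR adjusted p = 0.00129).

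**Figure D2:**
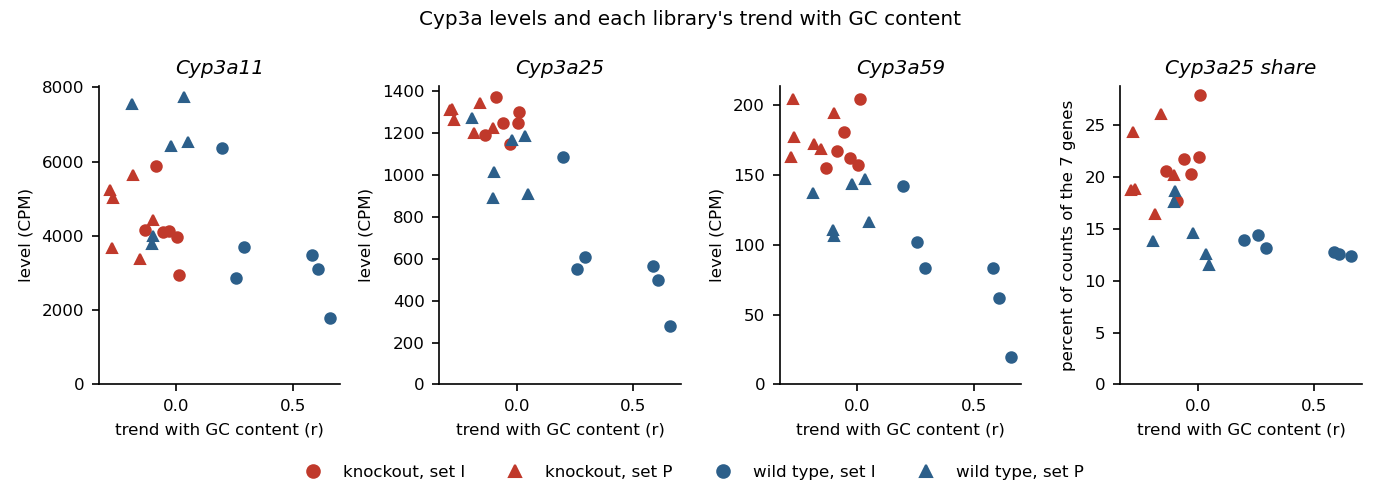
Levels in CPM of Cyp3a11, Cyp3a25 and Cyp3a59, and the share of Cyp3a25 in percent of the counts of the 7 genes (vertical axes, from 0), against each library's trend with GC content (horizontal axis, correlation across genes). Wild-type set I (blue circles) spreads over the right and is lowest in CPM at 0.6571, whereas its Cyp3a25 share stays at 12.35 to 14.45%, near the 11.55 to 18.65% of wild-type set P.

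**Figure D3:**
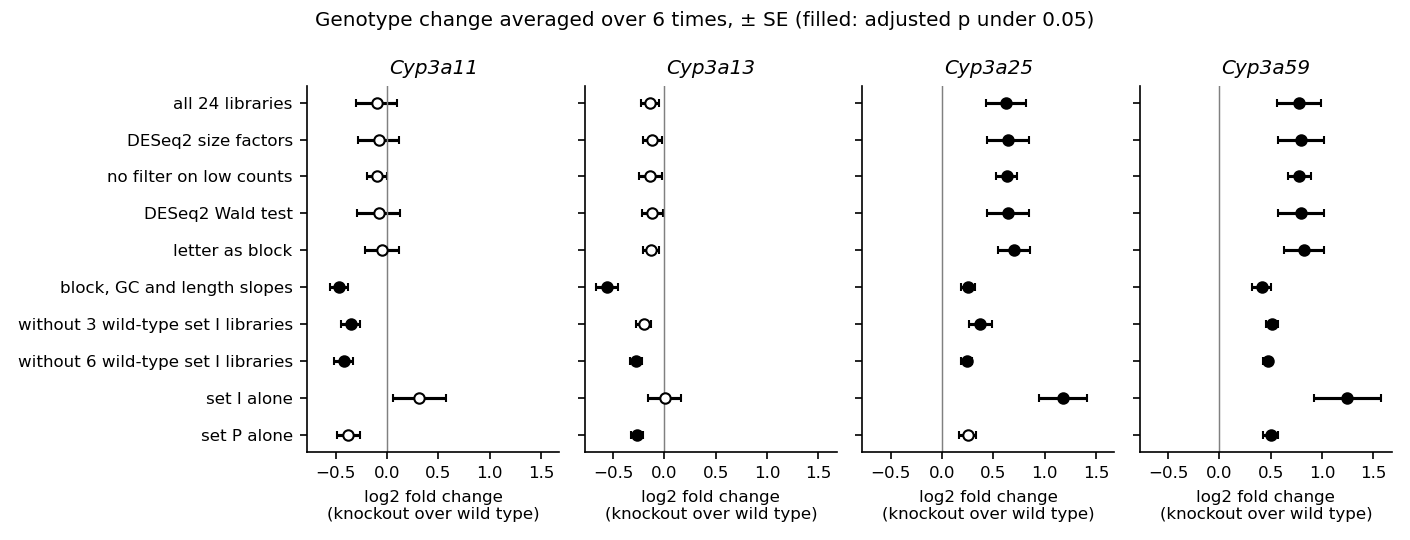
Log2 fold change of knockout over wild type averaged over the 6 times (horizontal axis), with its SE, for 4 genes under 10 settings. Filled points passed at an adjusted p under 0.05. Settings without wild-type set I libraries leave a lone library in the wild-type groups concerned, so their SE rests on the other groups. Cyp3a25 (0.24 to 1.18) and Cyp3a59 (0.41 to 1.25) lie right of 0 under all settings shown, whereas Cyp3a11 and Cyp3a13 lie right of 0 only within set I.

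What held in both sets, for 4 of the 6 pairs of tested members, was their balance within a library. The library's scaling cancels in this measure, but a trend with GC content or transcript length need not. Each library held 3.409 Cyp3a11 counts per Cyp3a25 count in the knockout (geometric mean, range 2.265 to 4.698, n = 12) and 5.701 in the wild type (range 3.945 to 7.186, n = 12). In log2 terms this ratio was 1.77 ± 0.313 in the knockout and 2.51 ± 0.253 in the wild type (SD, n = 12 each), a difference of -0.74. Within set I the ratios were 3.3 in the knockout and 5.985 in the wild type, and within set P they were 3.521 in the knockout and 5.43 in the wild type. At each of the 6 times both knockout libraries lay below both wild-type libraries. A gene's ratio to Cyp3a11 was higher in the knockout in this way at all 6 times for 2.04% of all genes tested, and its ratio to Cyp3a13 for 8.15%.

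The ratio of Cyp3a11 to Cyp3a59 was 24.64 in the knockout and 46.43 in the wild type, a log2 difference of -0.91. The ratio of Cyp3a13 to Cyp3a25 was 0.1904 in the knockout and 0.3421 in the wild type (log2 difference -0.85). The ratio of Cyp3a13 to Cyp3a59 was 1.376 in the knockout and 2.787 in the wild type (log2 difference -1.02). The size of both Cyp3a13 differences depended on the set. Against Cyp3a25 the log2 difference was -1.17 within set I and -0.52 within set P. Against Cyp3a59 it was -1.27 within set I and -0.77 within set P. All 6 pairs of the 4 members were compared with a two-sided exact permutation test of genotype within each time, adjusted over the 6 pairs. By this exact permutation test the 4 ratios above each gave p = 4.29e-05, the smallest that 46656 relabellings can give (adjusted p = 6.43e-05). That test does not keep libraries of the same letter together. With genotype permuted within time and letter, the exact permutation p was 0.000488 for each, the smallest of 4096 relabellings (adjusted p = 0.000732). Within each set alone they gave the smallest p of 64 relabellings, 0.0312 (adjusted p = 0.0469 by the same exact permutation test). They kept their direction and passed without any single library.

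The other two pairs did not pass. The ratio of Cyp3a11 to Cyp3a13 was 17.9 in the knockout and 16.66 in the wild type (log2 difference 0.10, exact permutation adjusted p = 0.508), and its difference was -0.11 within set P. The ratio of Cyp3a25 to Cyp3a59 was 7.228 in the knockout and 8.145 in the wild type (log2 difference -0.17, exact permutation adjusted p = 0.122). That difference passed without wild-type set I of ZT12 (-0.24, exact permutation adjusted p = 0.000977) or wild-type set P of ZT20 (-0.24, exact permutation adjusted p = 0.0447). Cyp3a25 and Cyp3a59 also varied together, with r = 0.968 over the 12 group means and 0.941 over the 24 libraries, which share their depth and their GC trend. No other pair of members exceeded 0.374 over the group means. These correlations are descriptions only.

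**Figure D4:**
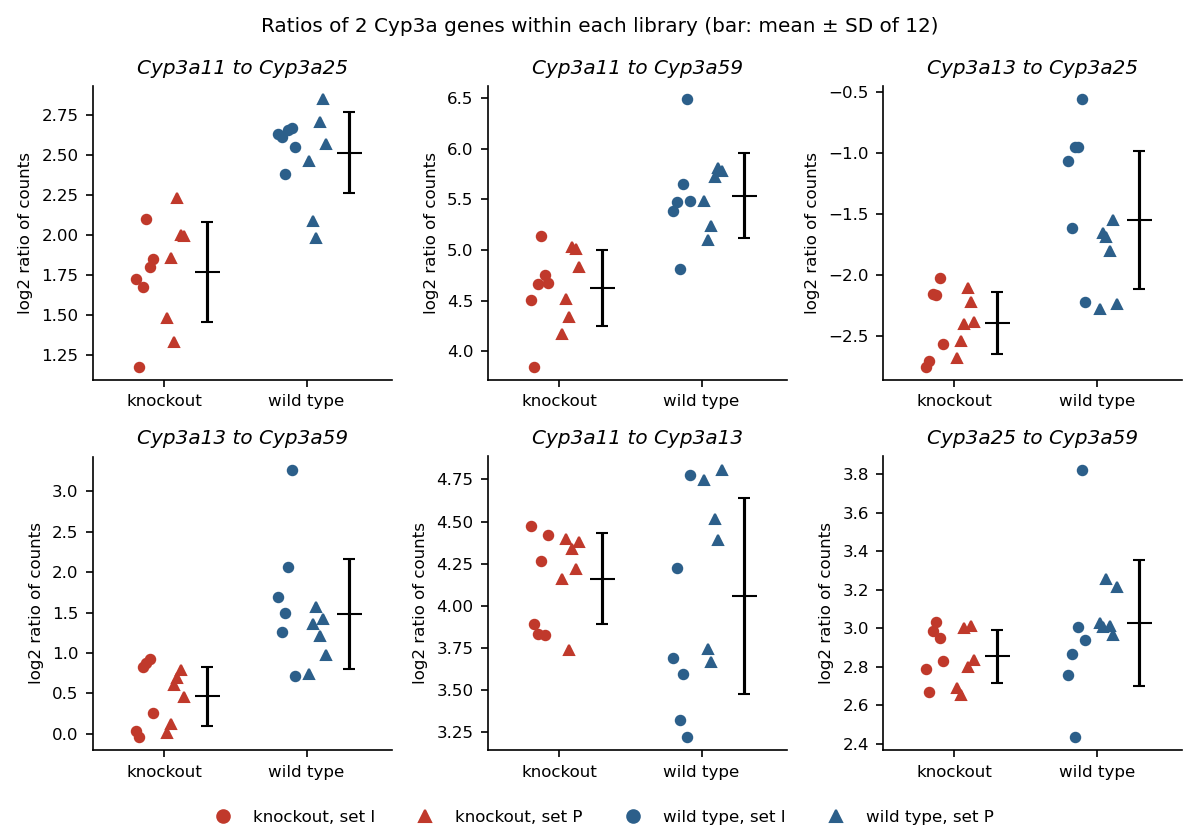
Log2 ratio of the counts of 2 Cyp3a genes within each library (vertical axes, each with its own range) in the 12 knockout and 12 wild-type libraries, with the mean and SD beside them. Circles are set I and triangles set P, from ZT04 to ZT24 left to right within a set. For Cyp3a11 to Cyp3a25 the means are 1.77 in the knockout and 2.51 in the wild type, and the same order is seen in both sets.

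The make-up of the family shifted by these amounts. Cyp3a25 took 21.25 ± 3.423% of the family's counts in the knockout and 14.01 ± 2.126% in the wild type (SD, n = 12 each). Cyp3a59 took 2.965 ± 0.6435% in the knockout and 1.757 ± 0.4356% in the wild type. Cyp3a11 took 71.74 ± 4.239% in the knockout and 79.16 ± 3.119% in the wild type, and Cyp3a13 took 4.043 ± 0.6261% in the knockout and 5.059 ± 1.866% in the wild type. The 7 genes together held 6065 ± 919 CPM in the knockout and 5984 ± 2361 CPM in the wild type, a difference within the spread. By set, they held 5867 CPM in the knockout and 4474 CPM in the wild type within set I, and 6263 CPM in the knockout and 7494 CPM in the wild type within set P, so that the direction differed between the sets. The Cyp3a13 share was 4.144% in the knockout and 5.977% in the wild type within set I, but 3.942% in the knockout and 4.141% in the wild type within set P. The Cyp3a25 shares averaged 21.72% in the knockout and 13.22% in the wild type within set I, and 20.78% in the knockout and 14.8% in the wild type within set P.

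Per kilobase of the longest coding transcript, the order of levels differed between the genotypes at the third place. In the knockout, Cyp3a11 averaged 1870 ± 382.4 RPKM and Cyp3a25 631.3 ± 33.25 RPKM, with no overlap (SD, n = 12). Cyp3a59 (88.04 ± 8.689 RPKM) and Cyp3a13 (82.45 ± 14.73 RPKM) followed, with overlapping ranges and Cyp3a59 the higher in 6 of 12 libraries. In the wild type, Cyp3a11 averaged 2038 ± 857.4 RPKM and Cyp3a25 417.6 ± 162.2 RPKM. There Cyp3a13 (89.95 ± 15.33 RPKM) was above Cyp3a59 (52.41 ± 19.06 RPKM) in 12 of 12 libraries. Cyp3a44, Cyp3a16 and Cyp3a41a averaged 0.02551 to 0.1608 RPKM over the 2 genotypes, with overlapping ranges.

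The 3 scarce members were near the limit of detection. Cyp3a16 totalled 11 counts over the 12 knockout libraries (exact 95% Poisson interval 5.491 to 19.68) and 21 over the 12 wild-type libraries (13 to 32.1). Cyp3a41a totalled 11 counts (5.491 to 19.68) in the knockout and 45 (32.82 to 60.21) in the wild type, and Cyp3a44 34 (23.55 to 47.51) in the knockout and 63 (48.41 to 80.6) in the wild type. These intervals cover counting error only. A single library supplied much of the wild-type sums: wild-type set I of ZT12 held 7 Cyp3a16, 25 Cyp3a41a and 25 Cyp3a44 counts, and no other library held more than 8 of any of them. Wild-type set P of ZT12 held 4 Cyp3a16, 8 Cyp3a41a and 6 Cyp3a44 counts. The knockout libraries of ZT12 held 1 and 1 count of Cyp3a16, 1 and 1 of Cyp3a41a, and 1 and 3 of Cyp3a44. The neighbouring pseudogene Cyp3a63-ps had 11 of its 20 counts in the same wild-type library. The remaining Cyp3a rows of the table were lower still, with 6 counts of Cyp3a41b, 5 of Cyp3a57 and 0 of Cyp3a61-ps1 over all 24 libraries.

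**Figure D5:**
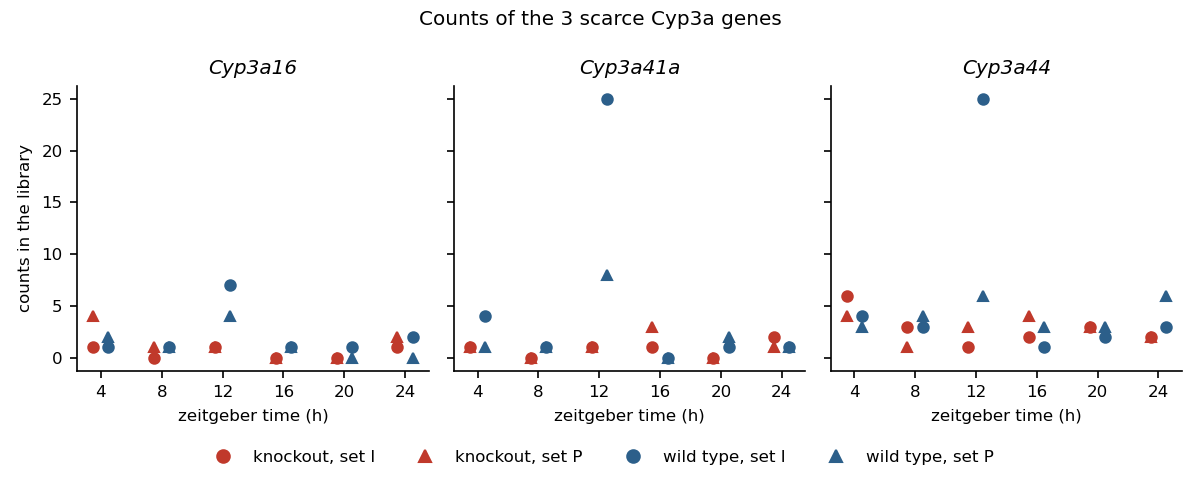
Counts per library (vertical axis, from 0) of Cyp3a16, Cyp3a41a and Cyp3a44 against zeitgeber time in hours, with circles for set I and triangles for set P. Wild-type set I of ZT12 stands out at 7, 25 and 25 counts, and the knockout libraries lie at 0 to 6 counts.

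Other genes known as female-biased in mouse liver were high in the same library. Of 12 such genes, 9 were highest of all 24 libraries in wild-type set I of ZT12. Among the 9 of them that were tested the count was 8, and 7.99% of all genes tested were highest in this library. The filter can keep a gene for its counts in the 2 libraries of a single group. This library was also picked after its values were seen. The count of 8 is therefore a description only. There Cux2, a female-biased transcription factor, was at 43.16 CPM, with 12.25 CPM in wild-type set P of ZT12 and a median of 0.5588 CPM in the other 22 libraries. Ddx3y was nevertheless read at 43.76 CPM in wild-type set I of ZT12, and no library lacked it. The X-linked Xist was at 0.1212 CPM there. Its range was 0.1172 to 1.045 CPM in knockout libraries and 0 to 1.337 CPM in wild-type libraries. The part of these genes in the Cyp3a counts was not tested. Averaged over the times, 2 of the 9 female-biased genes tested passed as higher (Sult3a1 and Slc22a27) and 2 as lower, Acot3 among them. Over all genes tested, 12.1% passed as higher and 21.1% as lower. Neither Sult3a1 (edgeR adjusted p = 0.285) nor Slc22a27 (edgeR adjusted p = 0.34) passed within set P, where Cyp2a4 was the 1 higher gene (1.09, edgeR adjusted p = 0.00128). The mean level of Slc22a27 was 2.017 CPM in the knockout and 2.219 CPM in the wild type, the other way from its fitted log2 change of 1.26. Of 11 male-biased genes, 2 rose (Selenbp2 and Mup20) and 2 fell (Cyp2d9 and Ugt2b1), against the same shares of all genes.

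A daily rhythm was not called for any of the 4 tested members. In a 24 h cosine fit, 0 of 4 passed in the knockout, where 3.57% of all genes did by edgeR, and 0 of 4 passed in the wild type, where 8.67% did. At an unadjusted p under 0.05 the counts were 1 in the knockout and 0 in the wild type. The knockout gene was Cyp3a13, with an amplitude of 0.33 (log2) and a fitted peak at ZT16.7 (edgeR adjusted p = 0.0614), against 0.14 and ZT14.4 in the wild type (edgeR adjusted p = 0.53). With the letter as a replicate block the knockout rhythm of Cyp3a13 passed (amplitude 0.33, edgeR adjusted p = 0.0272), and it also passed within set P (0.25, edgeR adjusted p = 0.0362), as did 5.23% of all genes. It did not pass with slopes on GC content and length added to the block (0.31, edgeR adjusted p = 0.296) or within set I (0.42, edgeR adjusted p = 1). Within set P the wild-type rhythm of Cyp3a13 passed as well (amplitude 0.23, edgeR adjusted p = 0.0484). The difference of its rhythm between the genotypes within set P was 0.13 (edgeR adjusted p = 0.986). Cyp3a25 had an amplitude of 0.04 in the knockout and 0.19 in the wild type. Cyp3a11 had 0.28 in the knockout, with its peak at ZT18.9, and 0.37 in the wild type, with its peak at ZT22.9. The rhythm difference and the genotype by time interaction passed for 0 of 4 members and for 0 of all 15090 genes, and for 0 members at an unadjusted p under 0.05. With the block, Cyp3a25 passed at ZT20 (1.20, edgeR adjusted p = 0.0467), the only member and time to do so. That call was lost with slopes on GC content and length added to the block (0.28, edgeR adjusted p = 0.238), and without the 6 wild-type set I libraries the change was 0.44.

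The regulators known to act on Cyp3a genes were mostly lower in the knockout. Of 16 listed, 15 were tested, 6 fell and 0 rose, with a median log2 change of -0.23, beside 21.1% of all genes tested that fell. Within set P alone, where 13% of all genes tested passed and 6.7% passed as higher, 3 fell and 1 rose. CAR (Nr1i3), a xenobiotic receptor, was at 27.74 ± 6.595 CPM in the knockout and 54.43 ± 14.16 CPM in the wild type (log2 change -0.97, edgeR adjusted p = 3.79e-05). PXR (Nr1i2), the classical Cyp3a11 activator, was at 75.6 ± 13.36 CPM in the knockout and 99.39 ± 29.03 CPM in the wild type (-0.37, edgeR adjusted p = 0.0159). Foxa3, a hepatocyte forkhead factor, fell by 0.69 on the log2 scale (edgeR adjusted p = 0.000458), and Nfil3, a repressor that binds the D-box, fell by 0.58 (edgeR adjusted p = 0.00198). Hnf4a (-0.35) and Cebpa (-0.39), which activate liver genes, also fell in the fit of all libraries, with overlapping ranges. Of the 6 hepatocyte markers, 4 also fell and Apob was the 1 with a positive log2 change. Within set P, Nr1i3, Foxa3 and Nfil3 passed, and Nr1i2 (-0.22), Hnf4a (-0.23) and Cebpa (-0.19) did not. The gene that rose within set P was the glucocorticoid receptor Nr3c1 (0.26, edgeR adjusted p = 0.024).

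Of 6 genes that pass electrons to P450 enzymes or bind them, 2 rose and 1 fell, beside 12.1% and 21.1% of all genes tested. P450 reductase (Por), the obligate electron donor, was at 288.4 ± 160.8 CPM in the knockout and 524.6 ± 374.9 CPM in the wild type (log2 change -0.80, edgeR adjusted p = 0.000415). It also fell within set P (-0.54, edgeR adjusted p = 0.000801). Cyb5b, an outer mitochondrial cytochrome b5, rose by 0.42 (edgeR adjusted p = 0.0133) and Pgrmc1, a haem-binding P450 partner, rose by 0.39 (edgeR adjusted p = 0.0221), but neither passed within set P.

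The genes around the family were mixed. Within 250 kb of a member lay 63 other genes, of which 25 were tested, 2 rose (Zfp655 and Cdk8) and 2 fell (Atp5j2 and Azgp1), with a median log2 change of 0.01, and over all genes tested 12.1% rose and 21.1% fell. Zfp655, a zinc finger gene, was at 52.74 ± 13.15 CPM in the knockout and 33.48 ± 12.75 CPM in the wild type (log2 change 0.67, edgeR adjusted p = 0.0241), and it passed within set P as well (0.40, edgeR adjusted p = 0.0279).

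By correlation over the 12 group means, the genes most like Cyp3a25 were Zfp369 (r = 0.973), Wdfy2 (0.966) and Paip2b (0.966). Those most like Cyp3a59 were Zfp369 (0.962), Dleu2 (0.956) and Tdo2 (0.953). Hnrnpf (0.929), Elp2 (0.87) and Hars2 (0.862) were closest to Cyp3a11, and Pfkfb1 (0.941), Plin4 (0.919) and Sult1a1 (0.887) to Cyp3a13. Over the 24 libraries Zfp369 kept 0.967 with Cyp3a25, whereas Pfkfb1 had 0.506 with Cyp3a13 and Hnrnpf 0.661 with Cyp3a11. These are likenesses of level, picked as the highest of many genes, in libraries that share the trend with GC content.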

How the data were processed

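Liver RNA was prepared by guanidinium thiocyanate lysis, and 24 TruSeq Stranded mRNA libraries were sequenced, per the labels' protocols. The authors deposited raw read counts per Ensembl gene in 1 table for all samples. STAR 2.4.0i and mm10 come from the submitters' processing notes, whereas for the counting tool, annotation and strand setting nothing is given in the sources used here. Symbols, coordinates, lengths and GC content came from GENCODE M21, and promoters from RefSeq (GRCm38.p6).

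Levels were computed as CPM over TMM-scaled library sizes, and RPKM per kilobase of the longest coding transcript. Genes were kept with filterByExpr (minimum count 10) and tested with the quasi-likelihood test of edgeR 4.0.16 (under R 4.3.3) in a fit of 12 group means, or of a 24 h cosine per genotype, with Benjamini-Hochberg adjustment over 15090 genes and a threshold of 0.05. Ratios of members were log2 of counts + 0.5 within a library, tested by exact permutation. The scripts were checked on simulated counts. Totals of 14613001 to 19288322 counts leave members above 1 CPM with counting errors far under the spread between libraries.

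Libraries of the same letter deviated together: at the 6 times r was 0.125 to 0.321 over 11246 genes averaging 1 or more on the log2 CPM scale, and 0.0339 to 0.207 over all genes tested. The letters were therefore taken as a pairing in the replicate-block fits, from these data and not from the labels. The main fits and the main permutation test did not use this pairing. The alternatives were the letter as a replicate block, slopes on GC content and length, DESeq2 1.42.0, other scaling, no filter, 1 set alone and libraries left out. The members and the gene lists were chosen with earlier results of these data known. Named genes are all members, list genes past the threshold (up to 4 a list where over 5 passed), and the 3 genes most like each tested member over the group means (same level limit, no gene model names). Genes of the ZT12 comparison and list genes outside this rule were chosen after their values were seen, and 1 gene of the female-biased list is not reported here by name.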

Additional observations from a re-analysis of the deposited data

Results flagged for a closer look

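The genotype change of Cyp3a25 differed between the 2 sets of libraries. The log2 change was 1.18 within set I and 0.25 within set P, and set P minus set I was -0.913 (edgeR adjusted p = 0.0167, a test added after the data were seen). The knockout libraries of both sets were alike, at 1250 ± 77.88 CPM in set I and 1275 ± 57.29 CPM in set P (SD, n = 6 each). The wild-type libraries were not, at 597.5 ± 266.1 CPM in set I and 1073 ± 158.5 CPM in set P. The difference remained without wild-type set I of ZT04, ZT16 and ZT20 (-0.55, edgeR adjusted p = 0.039). What the 2 letters stand for, and so what separates the sets, was not tested.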

How the results depend on the processing

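Cyp3a25 and Cyp3a59 stayed higher in the knockout under all settings run for the averaged change, and 4 of 6 member ratios differed within each set and without any single library. Outside left-out libraries, 238 of 267 values for single genes or ratios kept direction and side of the threshold, 22 newly passed and 1 was lost (Cyp3a25 within set P). The 267 include rhythm amplitudes and interaction F values, which are never negative. Their direction could not change, so for them the tally reflects only the side of the threshold. Of 4 tested members, the averaged change was called for 4 (2 higher, 2 lower) with GC and length slopes in the replicate block. Without the 6 wild-type set I libraries the log2 changes were 0.24 for Cyp3a25, 0.47 for Cyp3a59, -0.42 for Cyp3a11 and -0.28 for Cyp3a13. For the refits counted in this paragraph the share of all genes passing is not given, except for the knockout rhythm within set P (5.23%). Their counts of members thus cannot be set against all genes. Calls summed over the single times, 0 as fitted, were 3 with no filter, 1 with the replicate block alone, 3 with slopes added, 2 without those 6 libraries and 2 without wild-type set I of ZT04, ZT16 and ZT20, which was chosen after seeing the data. The knockout rhythm was called for 1 member (Cyp3a13) with the replicate block, without those 6 or those 3 libraries, and within set P. The wild-type rhythm was called for 2 members (Cyp3a11 and Cyp3a13) without those 3 libraries and 1 within set P. The wild-type rhythm called within set P was that of Cyp3a13. The replicate block changed no other call. The members whose change differed between the sets numbered 2 with no filter, against 1.

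Signs turned for Cyp3a25 at ZT04 (-0.0115) and ZT24 (-0.0569) with block and slopes, and at ZT24 without the 6 libraries (-0.0658). Within set I, Cyp3a11 averaged 0.32 and Cyp3a13 0.00299, and within set P the Cyp3a11 to Cyp3a13 difference was -0.11. The cause of these was not tested.

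Each library was left out in turn, which leaves a lone library in its group. Counts of members called in these refits are not given, as the share of all genes passing is not at hand. Without wild-type set P of ZT20, the wild-type library left at that time is the one with the strongest trend with GC content (0.6571). Averaged changes ran from -0.19 to 0.10 for Cyp3a11 and 0.54 to 0.81 for Cyp3a25. At ZT20 they ran from 0.46 to 2.16 for Cyp3a25 and 0.44 to 3.001 for Cyp3a59, and at ZT24 from -0.0786 to 0.147 for Cyp3a25. The Cyp3a13 knockout amplitude ran from 0.32 to 0.36 and the Cyp3a25 to Cyp3a59 difference from -0.24 to -0.10. Depth leaves Cyp3a16, Cyp3a41a and Cyp3a44 untested. The lone sample of a reduced group is assumed to vary like the other groups.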
